A study of Mus musculus with 6 samples.

Results

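Wnt ligands, their receptors, the secreted proteins that modulate them and the first intracellular components of the pathway were examined in retinal RNA from mice at postnatal day 7. Members were chosen by gene name: every probe set with a single annotated symbol that begins with Wnt, Fzd, Sfrp, Dkk or Dvl, or that is Lrp5, Lrp6, Ndp, Tspan12, Wif1, Frzb, Axin1, Axin2, Apc, Lef1, Tcf7, Tcf7l1 or Tcf7l2, with the probe set of highest mean signal kept for each gene. This gave 52 genes, from 80 probe sets, of 12393 genes with a single symbol on the array. Tcf7 was not among the single-symbol probe sets and is not analysed here. The prefix Dkk also brings in Dkkl1, a Dickkopf-like protein. The groups were 3 arrays of wildtype C57BL/6 retina and 3 arrays of retina from knockout mice, whose labels also give C57BL/6. No drug or other treatment is named for either group, and the labels do not say whether each array held the RNA of 1 animal or of several.

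Wnt proteins are secreted lipid-modified ligands that bind Frizzled receptors, in the best-known branch together with the co-receptors Lrp5 or Lrp6. Receptor binding recruits Dishevelled and holds back a destruction complex built on Axin and Apc, so that beta-catenin accumulates and acts with TCF/LEF factors in the nucleus. Secreted Frizzled-related proteins bind Wnts, and Dickkopf proteins act mostly on Lrp5 and Lrp6. In the retina, Norrin, a ligand that is not a Wnt, signals through Fzd4, Lrp5 and Tspan12 and is needed for the growth of retinal vessels.

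No member passed the test for a difference between knockout and wildtype retinae. Of the 52 genes, 18 had a mean scaled signal above 62.4, the 40th percentile of all probe sets, and were tested. They comprised 2 of 19 Wnt ligands, 6 of 13 receptors and Norrin, 5 of 11 secreted modulators, 5 of 6 cytoplasmic components and 0 of 3 TCF/LEF factors. With 1 probe set per gene, 34.6% of the members lay above that level, against 65.8% of all named genes. Among the 18, 0 had an adjusted p under 0.05 in limma, a linear model with shared variance (each adjusted p = 0.999), and 0 had an unadjusted p under 0.05. Over all 13575 probe sets tested, 0.0147% passed and 3.82% had an unadjusted p under 0.05.

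Log2 fold changes, given throughout as knockout minus wildtype on the scale of log2(signal + 19.1), were positive for 9 of the 18 and negative for 9, where 50.1% of all tested probe sets were positive. Their median was -0.0050, and that of all tested probe sets was 0.00031. The median size of a difference, regardless of sign, was 0.091 for the members and 0.13 for all. Only Sfrp1 differed by at least 1.5-fold, a share of 5.56% against 3.79% of all tested probe sets. The 95% interval lay inside 1.5-fold in both directions for 10 of the 18 (55.6%, against 50.4% of all), and inside 2-fold for 17 (94.4%, against 90.8%), the exception being Sfrp1. For those members, differences larger than these bounds on the scale of log2(signal + 19.1) lay outside the interval. Smaller ones could not be told from 0 with 3 arrays in each group. The added 19.1 shrinks differences of dim probe sets, so a 1.5-fold difference in signal itself can still lie inside some of these intervals.

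**Figure D1:**
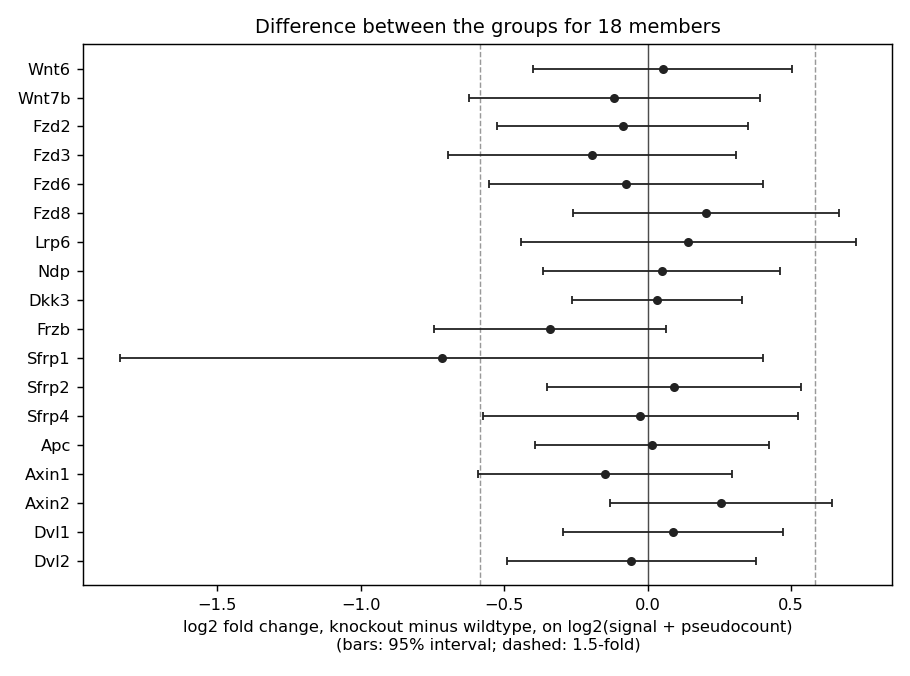
Log2 fold change of the 18 members above the signal filter, knockout minus wildtype, with its 95% interval from limma; dashed lines mark 1.5-fold. Every interval crosses 0, and the interval of Sfrp1 is the widest, from -1.84 to 0.40.

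Sequence before an annotated start is shown for Ndp, the Norrin gene, and for Axin2, to set the letters beside their values on the arrays. Of the 52 genes, 36 had an entry in RefSeq's promoters (build GRCm38.p6). The 250 bases before the start were searched on both strands for 4 TCF/LEF-type words of 7 letters: CTTTGTA, which Ndp holds, the form CTTTGTT with another last letter, and both CTTTGAA together with the similar CTTTGAT. A match was found for 7 of the 36 (19.4%) and for 16.8% of all 27025 genes with a promoter of that length. Among the 7 members above the filter with an entry, only Ndp had a match. Its sequence is printed with the match in capitals, at chrX:16911775-16912024 on the minus strand, beside that of Axin2, the member whose knockout arrays were all higher, at chr11:108920099-108920348 on the plus strand, where these letters do not occur. RefSeq's span of the Axin2 gene begins earlier, at base 108917828, so that window precedes a start inside the span.
Ndp: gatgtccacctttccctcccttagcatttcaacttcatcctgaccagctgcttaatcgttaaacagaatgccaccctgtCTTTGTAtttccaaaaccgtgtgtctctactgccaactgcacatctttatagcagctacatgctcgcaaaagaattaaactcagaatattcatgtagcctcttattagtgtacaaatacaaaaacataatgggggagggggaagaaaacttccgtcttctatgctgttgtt
Axin2: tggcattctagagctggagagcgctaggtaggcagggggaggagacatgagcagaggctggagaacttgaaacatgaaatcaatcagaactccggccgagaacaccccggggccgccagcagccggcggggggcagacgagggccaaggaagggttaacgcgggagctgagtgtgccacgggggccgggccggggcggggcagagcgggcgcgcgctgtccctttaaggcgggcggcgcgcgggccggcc
The Ndp window had a GC content of 41.2% and the Axin2 window 69.2%. A match is a description of the letters and says nothing of binding.

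Among the ligands, Wnt7b, which activates beta-catenin in brain endothelium, had scaled signals of 210, 271 and 156 in wildtype arrays 1 to 3 and 238, 168 and 172 in knockout arrays 1 to 3. The groups overlapped, with the highest and the lowest value both in wildtype. Its log2 fold change was -0.12 ± 0.23 (SE). Wnt6 had 97.6, 69.9 and 69.1 in wildtype and 78.5, 76.7 and 90.1 in knockout. The knockout values lay inside the wildtype range, and the log2 fold change was 0.053 ± 0.20 (SE).

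The other 17 ligands had mean signals from 1.26 to 55.8, below the filter, and array values from 0.059 to 77.0. They were not tested, and without detection calls it is not known which of these signals lie above background. Examples are Wnt5a, a ligand of the planar polarity branch, with 10.2, 25.4 and 30.3 in wildtype and 19.1, 40.5 and 23.2 in knockout. Wnt2b, known from the ciliary margin and pigment epithelium, had 67.1, 61.3 and 45.5 in wildtype and 58.2, 40.7 and 55.9 in knockout. Wnt3a, a classical activator of beta-catenin, ranged from 17.3 to 61.2 in wildtype and from 25.4 to 47.0 in knockout. For none of these 17 ligands did the groups separate. Of the Wnt genes, 4 pairs are immediate protein-coding neighbours in the mouse RefSeq annotation (Wnt6 and Wnt10a, Wnt3a and Wnt9a, Wnt9b and Wnt3, Wnt10b and Wnt1). In these pairs only Wnt6 was above the filter.

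**Figure D2:**
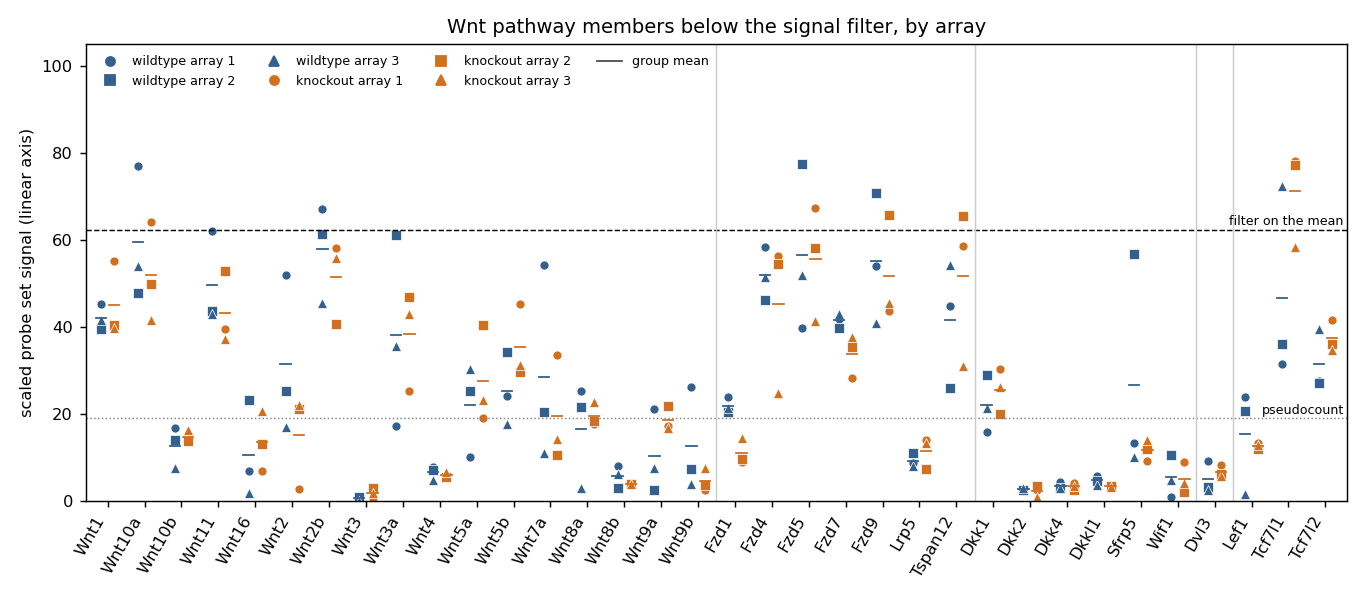
Scaled signal on each array, on a linear axis, of the 34 members below the filter; short lines are group means of 3 arrays, the dashed line is the filter on the mean (62.4) and the dotted line the pseudocount (19.1). Most values lie under the filter, and 10 members lie under the pseudocount on every array.

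Of the Frizzled receptors, Fzd2, Fzd3, Fzd6 and Fzd8 were above the filter. Fzd2 had 137, 129 and 102 in wildtype and 137, 101 and 106 in knockout (log2 fold change -0.087 ± 0.19, SE). Fzd3, a receptor known for its part in axon tract formation, had 117, 119 and 73.6 in wildtype and 70.8, 97.0 and 92.3 in knockout (-0.19 ± 0.22). In both genes the groups overlapped.

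Fzd6, of the planar polarity branch, had 127, 77.7 and 83.2 in wildtype and 90.2, 92.6 and 82.6 in knockout (-0.075 ± 0.21), so the knockout arrays lay within the wildtype range. Fzd8 had 88.4, 70.6 and 71.3 in wildtype and 103, 71.2 and 102 in knockout (0.21 ± 0.21). Knockout arrays 1 and 3 were above all wildtype arrays, and knockout array 2 was level with the lower ones. The co-receptor Lrp6 had 212, 166 and 140 in wildtype and 129, 191 and 273 in knockout (0.14 ± 0.26). Its knockout arrays held both the lowest and the highest value of the 6.

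Norrin, encoded by Ndp and known to be made by Mueller glia, was the only gene of its signalling complex above the filter. Ndp had 95.2, 82.1 and 80.8 in wildtype and 96.4, 80.2 and 92.4 in knockout. Its means were 86.0 ± 7.98 and 89.7 ± 8.43 (SD, n = 3), with a log2 fold change of 0.049 ± 0.18 (SE) and a 95% interval from -0.36 to 0.46. A difference of 1.5-fold in either direction therefore lay outside the interval. Its receptor Fzd4 had 58.4, 46.3 and 51.4 in wildtype and 56.4, 54.4 and 24.8 in knockout, where only knockout array 3 lay below the wildtype range. Lrp5 had 8.72, 11.1 and 8.12 in wildtype and 14.0, 7.46 and 13.4 in knockout. Tspan12, the tetraspanin of the complex, had 44.9, 25.9 and 54.2 in wildtype and 58.7, 65.5 and 31.0 in knockout. The last 3 genes were not tested because of their low signal.

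Below the filter, Fzd1 had 24.0, 20.4 and 21.4 in wildtype and 9.0, 9.65 and 14.6 in knockout, and Fzd7 had 41.8, 39.8 and 42.9 against 28.2, 35.5 and 37.7. Dkkl1 had values of at most 5.91. In these 3 genes every knockout array lay under every wildtype array. With all 22626 probe sets fitted and no filter, 5 of 52 members (9.62%) did not overlap between the groups, against 8.84% of all probe sets, and 0 members passed.

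The secreted modulators contained the member with the largest difference and a member whose groups did not overlap. Dkk3, a divergent Dickkopf, had 1671, 1636 and 1355 in wildtype and 1548, 1531 and 1673 in knockout. The knockout arrays lay within or just above the wildtype range, and the log2 fold change of 0.032 ± 0.13 (SE) had the narrowest interval of the members, from -0.27 to 0.33. A second Dkk3 probe set had lower values on the knockout arrays and is given with the other paired probe sets.

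Frzb, a secreted Frizzled-related protein, had 154, 142 and 191 in wildtype and 116, 136 and 119 in knockout. All 3 knockout arrays were below all 3 wildtype arrays, with a gap of 136 to 142 between the groups. The means were 163 ± 25.7 and 124 ± 10.6 (SD, n = 3), a ratio of 1.31 of wildtype over knockout. Its log2 fold change of -0.34 ± 0.18 (SE) had a 95% interval from -0.74 to 0.065 and an unadjusted p of 0.090 in limma (adjusted p = 0.999). With arrays brought to a common median in place of a common trimmed mean, the Frzb groups overlapped, as they did without rescaling and with the Frzb probe sets averaged. Its value was -0.068 without rescaling, where the median of all probe sets was 0.29. The other Frzb probe set, below the filter, had 39.6, 57.1 and 49.1 in wildtype and 18.8, 61.3 and 32 in knockout.

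Sfrp1, an inhibitor expressed in the developing eye, had 135, 196 and 55.3 in wildtype and 18.8, 102 and 102 in knockout. Knockout array 1 was the lowest of the 6 and wildtype array 2 the highest, and the groups overlapped. The log2 fold change was -0.72 ± 0.50 (SE), and it was -0.16 without knockout array 1 and -1.15 without wildtype array 3. This probe set carries the suffix that marks possible cross-hybridisation, and the other 3 Sfrp1 probe sets were below the filter. One of those, 1460187_at, had 35.4, 38.6 and 57.9 in wildtype and 27.2, 31.6 and 22.9 in knockout. There every knockout array lay below every wildtype array, at signals too low to be tested.

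Sfrp2 had 126, 123 and 104 in wildtype and 160, 107 and 116 in knockout (log2 fold change 0.093 ± 0.20, SE). Only knockout array 1 exceeded the wildtype range. Sfrp4 had 216, 219 and 116 in wildtype and 204, 153 and 167 in knockout (-0.025 ± 0.24), with the knockout arrays inside the wildtype range. Sfrp5, Wif1, Dkk1, Dkk2, Dkk4 and Dkkl1 were below the filter, with mean signals from 2.54 to 23.9. Sfrp5 reached 56.9 in wildtype array 2 and lay between 9.28 and 14.1 in the other 5 arrays. Wif1, a Wnt-binding inhibitor, did not exceed 10.6 on any array.

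**Figure D3:**
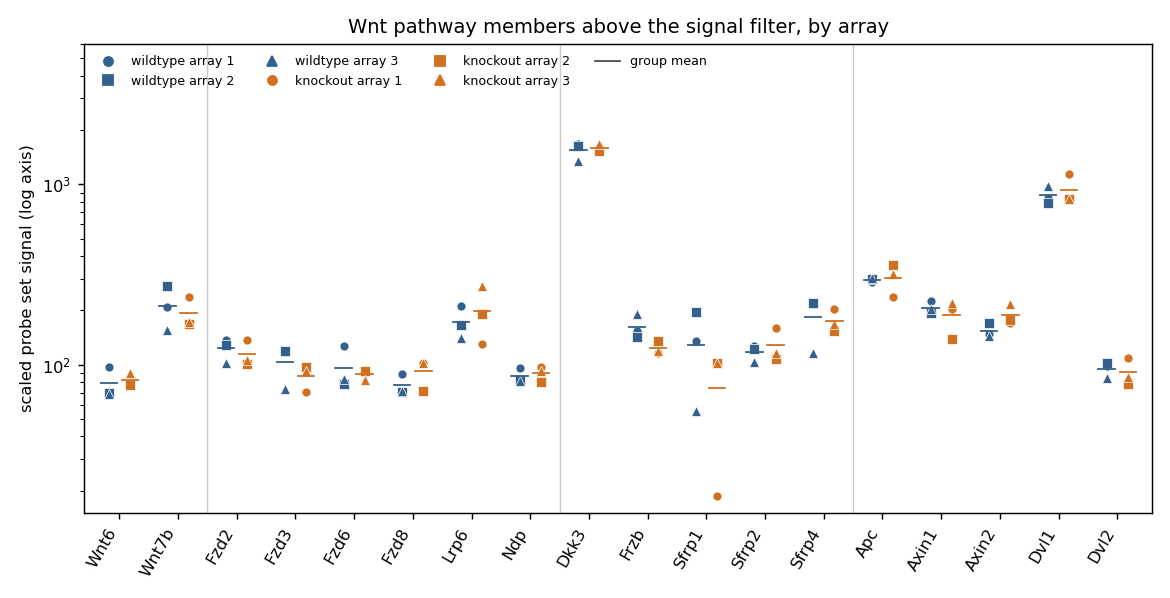
Scaled signal on each array, on a logarithmic axis, of the 18 members above the filter, ordered from ligands through receptors and Norrin and secreted modulators to cytoplasmic components; short lines are group means of 3 arrays. The groups overlap for all but Axin2, where the knockout arrays are higher, and Frzb, where they are lower, and knockout array 1 of Sfrp1 lies at 18.8.

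Among the cytoplasmic components, Axin2 is both a scaffold of the destruction complex and a widely used transcriptional target of beta-catenin. It had 148, 169 and 144 in wildtype and 170, 177 and 216 in knockout. All 3 knockout arrays lay above all 3 wildtype arrays, although knockout array 1 exceeded wildtype array 2 by little. The means were 154 ± 13.6 and 188 ± 24.7 (SD, n = 3), a ratio of 1.22, and the log2 fold change was 0.26 ± 0.17 (SE; 95% interval from -0.13 to 0.64; limma unadjusted p = 0.17, adjusted p = 0.999). Averaged with its other probe set, which had at most 23.2 on any array, Axin2 had -0.082 in place of 0.26.

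Axin2 and Frzb were the only 2 of the 18 tested members whose groups did not overlap (11.1%). The share of all tested probe sets without overlap was 9.1%, made up of 4.05% with knockout higher and 5.05% with knockout lower. The members' share was thus close to that of the whole array.

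Dvl1, a Dishevelled protein, had 843, 786 and 976 in wildtype and 1136, 827 and 831 in knockout (log2 fold change 0.089 ± 0.17, SE). Without knockout array 1, its highest value, it had -0.060. Dvl2 had 97.8, 101 and 84.2 in wildtype and 108, 78.3 and 85.2 in knockout (-0.057 ± 0.19). Dvl3 did not exceed 9.15 on any array. Axin1 had 225, 193 and 203 in wildtype and 205, 139 and 219 in knockout (-0.15 ± 0.20), where knockout array 2 alone lay under the wildtype range. Apc had 288, 298 and 302 in wildtype and 237, 357 and 316 in knockout (0.015 ± 0.18). The wildtype SD of Apc was 6.92 and the knockout SD 61.0 (n = 3), with knockout array 1 below and the other knockout arrays above the wildtype range.

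The 3 nuclear factors were below the filter. Tcf7l1, a factor known mainly as a repressor, had 31.4, 36.0 and 72.4 in wildtype and 78.2, 77.1 and 58.4 in knockout. Tcf7l2 had 27.7, 27.2 and 39.5 in wildtype and 41.7, 36.1 and 34.7 in knockout. Lef1 lay between 1.71 and 23.9 on all arrays. In each of them wildtype and knockout values overlapped.

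Different probe sets of a gene did not always give the same difference. Of the members, 6 had more than 1 probe set above the filter, and in 3 of these (Axin1, Dvl1 and Fzd3) all had the same sign. The Dvl1 probe sets were the closest, at 0.089 and 0.10. The widest spread was in Apc, where the probe sets had 0.015, 0.051 and -0.71. The last, 1450056_at, had 73.9, 92.9 and 73.0 in wildtype and 10.3, 67.9 and 65.9 in knockout. All knockout arrays lay below wildtype, knockout array 1 by far the lowest, and without that array the value was -0.20. Without knockout array 1, the Apc probe set of highest signal had 0.17.

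Axin1 and Dkk3 showed the same contrast between their probe sets. The second Axin1 probe set, 1426967_at, had 112, 108 and 68.7 in wildtype and 11.7, 78.2 and 57.5 in knockout, a log2 fold change of -0.89 ± 0.40 (SE) that was -0.40 without knockout array 1. Its groups overlapped, and its unadjusted p in limma was 0.0498, just under 0.05 (adjusted p = 0.999). Its limma interval, from -1.78 to -0.00088, was negative throughout. It is not the probe set kept for Axin1, so the count of members with an unadjusted p under 0.05 leaves it out. That count thus depends on which probe set is kept. The second Dkk3 probe set, 1417312_at, had 1313, 1169 and 1242 in wildtype and 669, 1019 and 1160 in knockout. Every Dkk3 value in knockout was below wildtype there, the log2 fold change was -0.42 ± 0.20 (SE), and without knockout array 1 it was -0.19. None of these probe sets passed (limma adjusted p = 0.999 for each).

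**Figure D4:**
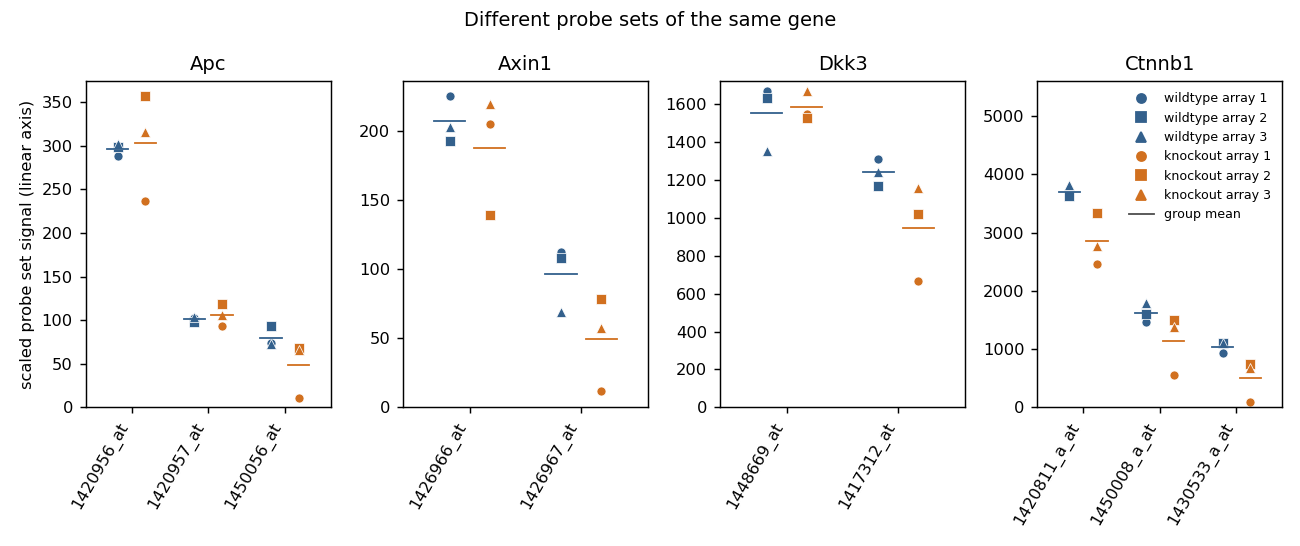
Scaled signal on each array, on linear axes, for the probe sets above the filter of Apc, Axin1, Dkk3 and the beta-catenin gene Ctnnb1; short lines are group means of 3 arrays. In all 3 Apc probe sets, 1426967_at (Axin1), 1417312_at (Dkk3) and all 3 Ctnnb1 probe sets, knockout array 1 is the lowest of the 6 arrays.

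Knockout array 1 stood apart from the other arrays over the whole table. Its correlations with them over the tested probe sets were 0.914 to 0.936, against 0.958 to 0.979 among the rest. The ratio of the 3' to the 5' probe set of the actin control, a sign of RNA integrity and labelling, was 2.17 on that array. It was 1.69 and 1.90 on the other knockout arrays and 1.44 to 1.64 in wildtype. Every knockout array thus lay above every wildtype array, so this ratio and the knockout cannot be told apart. The same ratio of the Gapdh control overlapped. It was 0.98, 0.82 and 0.88 on wildtype arrays 1 to 3 and 1.18, 0.88 and 1.16 on knockout arrays 1 to 3. Knockout array 1 was the lowest of the 6 for 28.2% and the highest for 25.3% of all tested probe sets. Among the 18 members it was the lowest for 5 and the highest for 5. Wildtype array 3 was the lowest for 6 of the 18 members and for 19.6% of all tested probe sets. The part of these array differences in the members' values was not tested.

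Genes that act beside the members in the pathway were taken from a list of 85, of which 70 had a single-symbol probe set and 54 were tested. The list covers beta-catenin, its kinases, R-spondins and their receptors, planar polarity genes and nuclear co-factors. None of the 54 passed (limma adjusted p = 0.999 for each), 1 had an unadjusted p under 0.05, and 39 had positive and 15 negative log2 fold changes, with a median of 0.071. The groups did not overlap for 3 of them, Apcdd1 and Sdc1 with knockout higher and Ctnnb1 with knockout lower, where the share over all tested probe sets was 9.1%. Sdc1 passed the filter only through its knockout arrays, so its separate groups are no independent result. Wls, below the filter and chosen after its values were seen, also had separate groups, with knockout lower. It had 80.0, 70.1 and 63.8 in wildtype and 53.6, 56.6 and 48.9 in knockout. No test of the share of positive values was made.

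Ctnnb1, which encodes beta-catenin, had 3628, 3624 and 3809 in wildtype and 2459, 3343 and 2765 in knockout. All knockout arrays were lower, with means of 3687 ± 106 and 2856 ± 449 (SD, n = 3) and a log2 fold change of -0.38 ± 0.13 (SE; limma unadjusted p = 0.015, adjusted p = 0.999). Its other probe sets had -0.62 and -1.42, and the last, 1430533_a_at, had 931, 1099 and 1097 in wildtype and 99.4, 743 and 668 in knockout. Without knockout array 1, the 3 probe sets had -0.28, -0.16 and -0.55. The groups of the first and the last were then still separate, as were those of 18.5% of all tested probe sets. Their unadjusted p in limma was 0.043 and 0.0037, and the adjusted p was 0.996 for each. Without rescaling of the arrays, the first had -0.062, where the median of all probe sets was 0.29.

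Apcdd1, a membrane inhibitor of Wnt signalling and itself a known Wnt target, had 316, 350 and 317 in wildtype and 394, 410 and 403 in knockout. The groups were separate, and the log2 fold change was 0.28 ± 0.15 (SE). This probe set carries the suffix that marks possible cross-hybridisation. Groups overlapped in the remaining tested Apcdd1 probe sets, at 0.16 and, with the same suffix, 0.25. Without knockout array 1 the first probe set had 0.30 and these had 0.12 and 0.021. Sdc1, a heparan sulphate proteoglycan, had 53.9, 59.3 and 62.1 in wildtype and 75.1, 64.5 and 85.0 in knockout (0.27 ± 0.20). All its wildtype values lay under the filter of 62.4. The other Sdc1 probe sets were below the filter, and their groups overlapped.

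Genes known as targets of beta-catenin in various tissues were counted next. Of 37 listed, 20 were tested, none passed, 0 had an unadjusted p under 0.05, and 16 had positive and 4 negative log2 fold changes (median 0.078). The tested genes whose groups did not overlap were 3 of the 20 (9.1% over all tested probe sets): Axin2 and Apcdd1, which are also among the genes above, and Fgf9, a growth factor. Bmp4 and Mitf, below the filter and chosen after their values were seen, also had separate groups, with knockout higher. Without a filter, 8.84% of all probe sets had separate groups. Fgf9 had 145, 149 and 162 in wildtype and 91.1, 128 and 123 in knockout (-0.37 ± 0.18, SE). The largest difference of the list was that of Gja1, added after its values were seen, at 0.68 ± 0.39 (SE). Gja1 had 258, 89.2 and 202 in wildtype and 485, 204 and 221 in knockout, so its groups overlapped.

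Genes that in endothelial cells are linked to Norrin signalling or to the blood-retina barrier had 10 tested members of 22 listed. None of them passed and 0 had separate groups, with 7 positive and 3 negative values and a median of 0.088. The summed signal over the 21 measured genes was 4243 to 4606 on the wildtype arrays and 4871 to 5035 on the knockout arrays, so the sums did not overlap. Most of the sum came from Slc2a1, Tfrc, Tjp1 and Slc7a5, with mean signals of 1347, 764, 687 and 487. It therefore says little of the dimmer genes of the list. With either other Slc2a1 probe set in the sum, an alternative chosen after seeing the data, the groups overlapped: 3883 to 4378 against 3936 to 4557, and 3976 to 4420 against 3903 to 4811. The largest statistics belonged to the glucose transporter Slc2a1, at 0.31 ± 0.17 (SE), and to the amino acid transporter Slc7a5, at 0.40 ± 0.26. The other tested Slc2a1 probe sets had -0.028 and -0.030. Slc7a5 had 360, 457 and 405 in wildtype and 686, 339 and 676 in knockout, so knockout array 2 was below the wildtype arrays and the other knockout arrays above them.

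Markers of the cells that make or receive these signals did not pass the test either (limma adjusted p = 0.999 for each named below). In whole retina, fewer cells of a type and less RNA per cell cannot be told apart. Of 9 tested Mueller glia genes, 5 were positive and 4 negative (median 0.043), and the summed signal of the list was 10046 to 10966 in wildtype and 10517 to 11227 in knockout. Dbi had 0.18, with separate groups, while its other probe sets had 0.020, -0.063 and -0.31. The largest difference of the list was that of Kcnj10, added after its values were seen, at 0.46 ± 0.21 (SE) with overlapping groups. Of 10 endothelial genes, 6 were positive and 4 negative (median 0.0072), with summed signals of 1651 to 2274 and 1706 to 2330. Emcn, an endothelial sialomucin, had -0.30 with separate groups. Eng, added after its values were seen, had the largest difference of that list, -0.44 ± 0.23 (SE), with overlapping groups.

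Pericyte genes had summed signals of 1006 to 1071 in wildtype and 1151 to 1361 in knockout, without overlap, and 3 of the 6 were tested. Their sum was carried mostly by Rgs5, which had 0.30 ± 0.13 (SE; unadjusted p = 0.045) in this probe set and -0.19, -0.16 and -0.53 in its other probe sets. Without knockout array 1 the first Rgs5 value was 0.28, and those of the other probe sets were -0.36, -0.44 and 0.064. The groups of the probe set at -0.36 were then separate, with knockout lower. Of 4 tested astrocyte genes 3 were positive and 1 negative (median 0.075). Gfap had 0.19, S100b 0.087 and Pdgfra -0.047, and the summed signals of that list were 478 to 620 and 548 to 599.

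Retinal identity and admixed tissue were read from further lists. The photoreceptor genes Crx, Nrl, Sag, Rcvrn and Gnat1 and the neuronal gene Pax6 were all above the filter, with mean signals from 500 to 7171. Of these 6 genes 1 was positive and 5 were negative (median -0.12), and their summed signals were 20612 to 22374 in wildtype and 18068 to 21441 in knockout. Sag had -0.18 and separate groups, and -0.019 with quantile normalization. Pigment epithelium genes, which share Wnt signalling with the ciliary margin, had summed signals of 1208 to 3097 in wildtype and 2214 to 3404 in knockout. Of 6 tested genes 4 were positive and 2 negative (median 0.15). Rpe65 and Mitf, below the filter and chosen after their values were seen, had separate groups, with knockout higher. Ttr had 0.70 ± 0.40 (SE) and Dct 0.34 ± 0.28, while the pigment enzymes Tyr and Tyrp1 had -0.059 and -0.0049. Wildtype array 2 was the lowest of the 6 for both Ttr and Dct. With 1 array left out, Ttr ranged from 0.15 to 1.05 and Dct from 0.054 to 0.61. The summed lens signal was 95.9, 53.0 and 1027 on the wildtype arrays and 125, 84.1 and 475 on the knockout arrays, and 2 of its 7 measured genes were tested, Cryba1 (0.31) and Cryaa (0.037). The mean signal of Cryba1 was 142 in wildtype against 90.3 in knockout, and that of Cryaa 87.0 against 53.2, so the means and the log2 fold changes differ in sign. The 5 genes below the filter all had lower log2 values in knockout. Wildtype array 3, with the highest lens sum, was also the array on which the members were lowest on average, with a mean deviation of -0.16 on the log2 scale. Knockout array 3, with the next highest lens sum, had a mean deviation of 0.049. The part of the lens signal in this was not tested.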

How the data were processed

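The authors deposited linear intensity values for 22690 probe sets on 6 Affymetrix arrays; the submitters' processing notes name MAS5. Version, scaling target and detection calls are not given in the sources used here. Trimmed means of the deposited values ran from 171 to 312 between arrays. Here the 64 control probe sets were dropped, arrays were scaled to a common mean after trimming 2% at each end, and log2(signal + 19.1) was taken, the pseudocount being the 20th percentile. This understates differences of dim probe sets. Probe sets above the 40th percentile of mean signal were fitted with limma 3.58.1 in R 4.3.3 (lmFit, eBayes with trend), with Benjamini-Hochberg adjustment over all 13575. Nothing in the labels says that arrays came from separate animals, so each p-value reflects only how these arrays vary, which could be technical. The number of arrays limits the precision. Groups came from sample titles.

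Members and lists were chosen with earlier results of these data known. Values on every array are given for members above the filter that had an unadjusted p under 0.05, groups without overlap, or 1 of the 4 highest mean signals of their class, and for the Norrin complex; further members were added after their values were seen. From each other list, up to 4 genes with an unadjusted p under 0.05 or without overlap are named, otherwise the 2 of largest statistic. Further list genes were added after their values were seen. Names came from the platform annotation (20380 probe sets with 1 symbol, 691 with several, 1555 unnamed here), and 20351 matched RefSeq by Entrez identifier. The fit was tested on simulated data. The targeted gene is not reported here. Alternatives covered scaling, pseudocount, filter, variance model, array weights, the choice of probe set, a replicate block and each array left out.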

Additional observations from a re-analysis of the deposited data

How the results depend on the processing

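The count of 0 members past an adjusted p of 0.05 in limma held in every alternative run. That of 0 other pathway genes held in every alternative except the choice of member probe set, where it was not counted. The lowest adjusted p was 0.72 among members and 0.54 among the other named genes. The 2 probe sets past the threshold over all became 10 without rescaling and 1 without a filter, and lay between 0 and 4 when single arrays were dropped (0 when wildtype array 3 was, 4 for wildtype array 2, 1 for knockout array 2 or 3). Members without overlap, 2 in all, were 1 with median scaling or the stricter filter and 5 without a filter, and lay between 2 and 5 when single arrays were dropped (5 without wildtype array 3, where 23.1% of all probe sets did not overlap). An equal count did not mean the same genes: Axin2 and Frzb became Axin2 and Dkk3 without rescaling, and Axin1 and Lrp6 with probe sets averaged. The members' median was 0.30 without rescaling, where all tested probe sets together had 0.29. The replicate block fit again gave 2 probe sets, 0 members and 0 pathway genes past the threshold. Same-numbered arrays correlated in their deviations at 0.18, -0.029 and 0.084 and other pairs at -0.29 to 0.26. With 3 arrays in each group these correlations cannot decide whether same-numbered arrays were paired.

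Of 313 member values under alternatives, 36 changed sign, and Frzb, Sfrp1, Fzd8 and Ndp were the 4 members that never did. These counts include the settings without rescaling and with median scaling, which moved the median of all probe sets to 0.29 and 0.088. Without rescaling, Axin1 (0.14), Dvl2 (0.21), Fzd2 (0.19), Fzd3 (0.073), Fzd6 (0.18), Sfrp4 (0.27), Wnt7b (0.18) and Sag (0.13) became positive. With median scaling Dvl2 (0.023), Fzd6 (0.0038) and Sfrp4 (0.063) did, and with quantile normalization Dvl2 (0.020). Averaging the probe sets of a gene gave Apc -0.22, Axin2 -0.082, Dkk3 -0.19, Fzd2 0.043 and Wnt7b 0.067. Array weights gave Sfrp2 -0.041, and 4 times the pseudocount gave Cryaa -0.11 and Cryba1 -0.0016. With 1 array left out the ranges were -0.11 to 0.17 for Apc, -0.26 to 0.034 for Axin1, -0.062 to 0.087 for Dkk3, -0.060 to 0.17 for Dvl1, -0.17 to 0.024 for Dvl2, -0.19 to 0.11 for Fzd6, -0.10 to 0.39 for Lrp6, -0.059 to 0.19 for Sfrp2, -0.30 to 0.11 for Sfrp4, -0.017 to 0.19 for Wnt6, -0.30 to 0.062 for Wnt7b, -0.025 to 0.17 for S100b, -0.67 to 1.20 for Cryaa and -0.46 to 1.55 for Cryba1. The runs with 1 array left out also rest on fewer arrays. The cause of the sign changes was not tested.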
